A study of Mus musculus with 6 samples.

Results

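The mitochondrial ribosome was examined through the nuclear genes that encode its proteins, in epididymal white adipose tissue (eWAT) that carried a viral Lmo3 transgene. Members were all genes whose single annotated symbol begins with Mrpl (large subunit) or Mrps (small subunit) followed by a digit, each represented by its brightest probe set. They comprised 77 of the 19938 genes with such a probe set, 48 of them Mrpl and 29 Mrps. Of these, 75 (46 Mrpl and 29 Mrps) were bright enough to be among the 11963 genes tested, while Mrpl22 and Mrpl47 fell into the dimmest 40% of genes and were not tested.

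The tissue came from C57BL6/J males whose high-fat diet (HFD) began at 6 weeks of age and lasted 12 weeks. eWAT, a visceral fat depot, had been transduced with a recombinant adeno-associated virus (rAAV) encoding Lmo3, a LIM-domain cofactor of transcription, or yellow fluorescent protein (YFP) as control. Each group comprised 3 Affymetrix mouse Gene ST arrays, and every array received the pooled RNA of 2 mice, so that the spread refers to pools and not to single animals. The transgene was under control of a ubiquitous cytomegalovirus enhancer and chicken beta-actin promoter in an rAAV of serotype Rec2, and whole tissue was profiled. The titles of the samples name the control vector rAAV-YFP, which is used here, whereas their treatment protocol names rAAV-LacZ. The comparison asks how the transcriptome of obese eWAT differs when Lmo3 is delivered to it.

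The probe set of Lmo3 itself gave 25, 24 and 24 (intensity) in rAAV-YFP and 24, 26 and 24 in rAAV-Lmo3, a log2 difference of 0.02. It was dim on all 6 arrays and gives no check of the labels. In mean correlation to the other arrays over the tested genes, rAAV-Lmo3 1 (0.959) and rAAV-YFP 2 (0.962) were the lowest, and the other 4 arrays lay between 0.973 and 0.977. Adipocyte markers, among them those of lipid droplets and adipokines, were bright in all samples, with summed intensities over the 14 of 16 markers on the array between 88392 and 105401. Markers of macrophages were present in every sample too, and their sum ranged from 22598 on rAAV-YFP 2 to 51043 on rAAV-YFP 1. In such bulk samples fewer cells of a type and less RNA per cell cannot be told apart.

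Mitochondrial ribosomes translate the few proteins encoded by mitochondrial DNA, all of them subunits of the respiratory chain and ATP synthase. Their RNA is mitochondrial, but every one of their proteins is encoded in the nucleus, made in the cytosol and imported. Many of these proteins have homologues in bacterial ribosomes, and others were acquired during the evolution of mitochondria. The small subunit binds the mRNA and decodes it, while the large subunit joins the amino acids and is held at the inner membrane, into which the products are inserted. In adipocytes, mitochondria serve fatty acid oxidation and lipogenesis, and brown adipocytes are particularly rich in them.

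Promoters are shown first for the 2 members of each subunit with the smallest p among those with a promoter in RefSeq (GRCm38.p6), so that the letters behind the motif counts further on can be seen. Mrpl14, a large subunit protein at the interface to the small subunit, lies on the plus strand, with the window chr17:45686099-45686348. Mrpl16, a large subunit protein near the tRNA sites, lies on the plus strand, at chr19:11770165-11770414. Mrps26, a small subunit protein found only in mitochondria, lies on the plus strand, at chr2:130563507-130563756, and Mrps33, likewise mitochondria-specific, on the minus strand, at chr6:39810937-39811186. Each line gives the 250 bases before the start site, 5′ to 3′, and capitals mark letters that match a searched motif in that window.
Mrpl14: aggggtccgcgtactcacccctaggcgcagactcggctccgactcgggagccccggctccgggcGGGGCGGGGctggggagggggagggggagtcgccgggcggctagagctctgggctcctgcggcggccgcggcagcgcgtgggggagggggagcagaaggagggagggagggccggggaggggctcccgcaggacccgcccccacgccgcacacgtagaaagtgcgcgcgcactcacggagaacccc
Mrpl16: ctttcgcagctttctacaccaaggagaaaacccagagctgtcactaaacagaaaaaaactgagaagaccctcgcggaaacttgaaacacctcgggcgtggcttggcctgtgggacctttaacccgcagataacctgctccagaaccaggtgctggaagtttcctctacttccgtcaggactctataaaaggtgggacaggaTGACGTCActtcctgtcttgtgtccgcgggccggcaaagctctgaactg
Mrps26: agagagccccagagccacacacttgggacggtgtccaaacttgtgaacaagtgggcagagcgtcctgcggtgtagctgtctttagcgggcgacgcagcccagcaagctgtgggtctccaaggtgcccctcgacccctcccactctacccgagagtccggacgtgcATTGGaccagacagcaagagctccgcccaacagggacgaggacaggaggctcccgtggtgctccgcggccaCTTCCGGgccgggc
Mrps33: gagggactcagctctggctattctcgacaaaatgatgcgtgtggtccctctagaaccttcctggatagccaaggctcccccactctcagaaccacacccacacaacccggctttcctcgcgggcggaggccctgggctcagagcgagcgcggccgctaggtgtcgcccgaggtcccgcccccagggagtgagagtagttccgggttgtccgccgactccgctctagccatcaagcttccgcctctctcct
In these windows the Mrpl14 promoter had a GC box (GGGGCGGGG), that of Mrpl16 a cAMP response element (TGACGTCA), and that of Mrps26 a CCAAT box and an ETS motif, both on the opposite strand. The Mrps33 window held none of the motifs.

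The 8 members with the smallest p in the group comparison were 6 of the large and 2 of the small subunit. All 8 were higher in rAAV-Lmo3, and Mrps26 and Mrps33 came first. For Mrps26, intensities were 209, 207 and 225 in rAAV-YFP and 298, 250 and 253 in rAAV-Lmo3. All rAAV-Lmo3 arrays were above all rAAV-YFP arrays, and rAAV-Lmo3 1 was the highest. The log2 difference was 0.32 ± 0.10 (SE, n = 3 pools per group), and without rAAV-Lmo3 1 it was 0.24. Its p by limma was 0.0144 before and 0.97 after Benjamini-Hochberg adjustment. Mrps33 gave 585, 582 and 622 against 858, 673 and 754, again without overlap. Its log2 difference was 0.35 ± 0.11 (limma, adjusted p = 0.97), and 0.26 without rAAV-Lmo3 1. A second probe set of Mrps33 differed from the first by 0.03 in this log2 difference.

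Among the large subunit genes, Mrpl14 showed 248, 274 and 280 in rAAV-YFP and 343, 314 and 305 in rAAV-Lmo3. The groups did not overlap, and the log2 difference was 0.26 ± 0.09 (limma, adjusted p = 0.97). Mrpl19, which also lies at the subunit interface, gave 256, 254 and 282 against 340, 303 and 305. It did not overlap either, with a log2 difference of 0.26 ± 0.09 (limma, adjusted p = 0.97). Mrpl16 had the largest log2 difference of all tested members, 0.42 ± 0.16 (limma, adjusted p = 0.97), from intensities of 232, 226 and 291 against 401, 287 and 317. Here the groups overlapped, because rAAV-YFP 3 lay above rAAV-Lmo3 2. Mrpl32, a protein whose cleavage by the m-AAA protease precedes its assembly into the large subunit, had 254, 252 and 275 against 347, 299 and 287. Mrpl17, which lies near the exit of the peptide tunnel, had 220, 244 and 256 against 309, 271 and 274, and the mitochondria-specific Mrpl37 had 419, 469 and 459 against 572, 501 and 500. In all 3 genes the groups were separate, and the log2 differences were 0.25 ± 0.10, 0.25 ± 0.10 and 0.22 ± 0.09.

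No member passed the adjusted test (0 of 75), and of all 11963 genes 0% did. The smallest adjusted p by limma was 0.97 among members and 0.669 among all genes, so the differences given here are measured values and are not called changes. At an unadjusted p under 0.05, 8 of 75 members (10.7%) were higher, compared with 2.27% of all genes, and 0 members were lower. Intensities did not overlap between the groups, with rAAV-Lmo3 higher, in 13 members (17.3%), compared with 4.53% of all genes. Of these, 10 were large subunit genes (Mrpl14, Mrpl15, Mrpl17, Mrpl19, Mrpl27, Mrpl32, Mrpl35, Mrpl36, Mrpl37 and Mrpl44) and 3 were small subunit genes (Mrps14, Mrps26 and Mrps33). With 3 arrays per group the exact two-sided permutation p of any of them is 0.1, the smallest this design allows. The methods' t-test gave an unadjusted p under 0.05 for 5 higher members (Mrpl14, Mrpl17, Mrpl19, Mrps26 and Mrps33), compared with 1.95% of all genes.

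Small differences in the same direction were seen throughout the family. The log2 difference was above 0 in 74 of 75 members, compared with 50.3% of all genes, and Mrpl10 was the exception. The median was 0.18, with quartiles of 0.12 and 0.24 and a range of -0.04 to 0.42, and the median of all tested genes was 0.00076. Members of 1 protein complex vary together on an array and are not independent of each other.

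**Figure D1:**
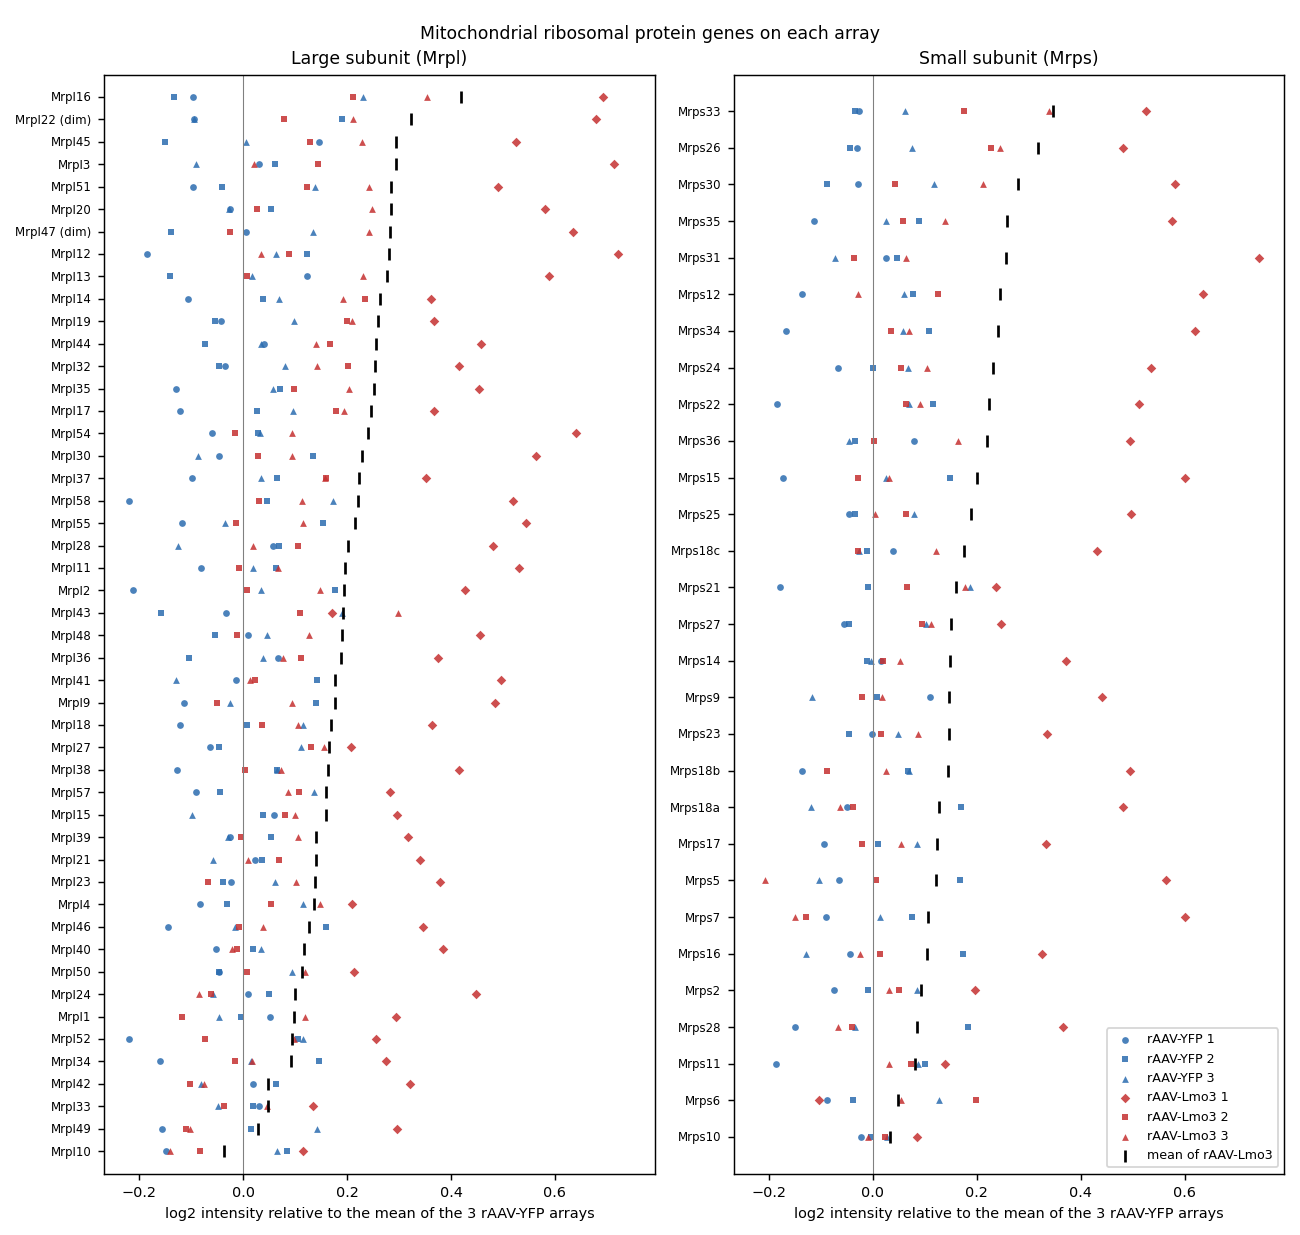
Each line is 1 member, and each symbol its log2 intensity on 1 array minus the mean over rAAV-YFP (horizontal axis; rAAV-YFP in blue, rAAV-Lmo3 in red, with a black bar at the mean of rAAV-Lmo3; dim, not tested). Array rAAV-Lmo3 1 (red diamonds) is the highest for 73 of the 75 tested members, and the means lie right of 0 for all tested members but Mrpl10.

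The members stood highest on 1 array. rAAV-Lmo3 1 had the highest intensity of all arrays for 73 of 75 members (97.3%), whereas it was the highest for 25.5% of all tested genes. Exceptions were Mrpl43, with 299, 274 and 349 in rAAV-YFP and 344, 330 and 376 in rAAV-Lmo3, and Mrps6, for which rAAV-Lmo3 1 was the lowest array. The members on rAAV-Lmo3 1 exceeded the mean of the other rAAV-Lmo3 arrays by a median of 0.35 on the log2 scale, and by more than 0.3 in 47 of 75. Over all tested genes the corresponding median was 0.0033, and 12.1% exceeded it by more than 0.3. At the other end, rAAV-YFP 1 was the lowest array for 39 members (52%), compared with 17% of all genes.

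Without rAAV-Lmo3 1 the median difference of the members was 0.05, and 63 of 75 were above 0, compared with 50.7% of all genes. At an unadjusted p under 0.05, 2 members (Mrps26 and Mrps33) were then higher, 2.67% of the members compared with 2.49% of all genes. The 13 members without overlap remained 13 (17.3%), compared with 10.3% of all genes. Leaving out an array can only add such genes. In 73 of 75 members rAAV-Lmo3 1 was the highest array. Leaving it out cannot change whether their other rAAV-Lmo3 arrays lie above all controls, so the count for them was fixed in advance. Without both rAAV-Lmo3 1 and rAAV-YFP 2 the median was 0.08, and 66 of 75 members were above 0. Over all genes that median was -0.0050, and 5718 of 11963 were above 0. The log2 difference was positive in each of the comparisons that left out 1 array for 60 of 75 members. In 66 members the smallest of these values was the one without rAAV-Lmo3 1. These last 2 counts were taken for members only and not over all genes.

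**Figure D2:**
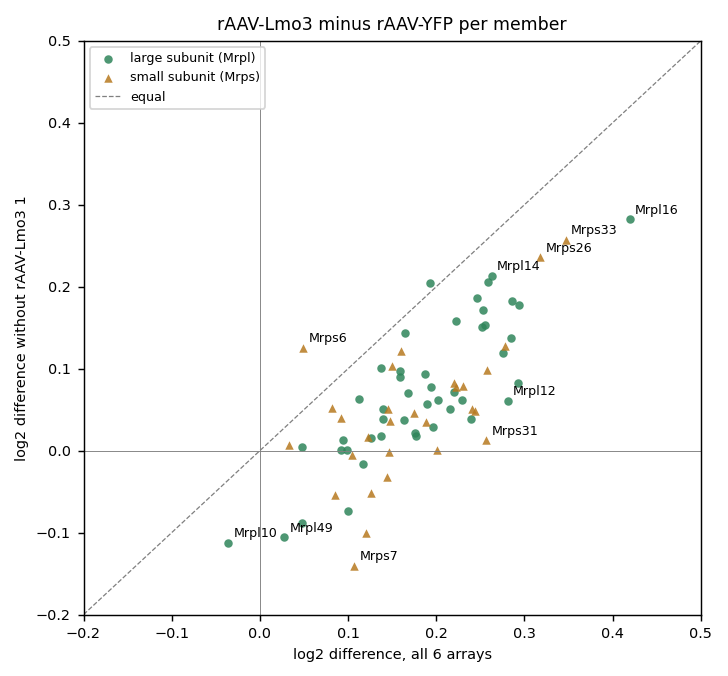
Log2 difference between rAAV-Lmo3 and rAAV-YFP per tested member with all 6 arrays (horizontal axis) and without rAAV-Lmo3 1 (vertical axis); green circles, Mrpl; brown triangles, Mrps; dashed line, equal values. Most members lie between the dashed line and 0, and Mrps6 and Mrpl43 lie above the line.

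Of 9 markers of brown adipocytes, 5 were highest on rAAV-Lmo3 1 (Ucp1, Cidea, Cox8b, Cox7a1 and Ppargc1a), compared with 25.5% of all tested genes. Elovl3, Prdm16 and Kcnk3 were highest on rAAV-Lmo3 3 and Dio2 on rAAV-Lmo3 2, and Kcnk3 was lowest on rAAV-Lmo3 1. Ucp1, Cidea, Elovl3 and Dio2 were too dim to be tested. The summed intensity of the 9 was 1346, 1572 and 1569 in rAAV-YFP and 2660, 1724 and 1874 in rAAV-Lmo3, and 4 of the 5 tested had a log2 difference above 0. Cox8b alone gave 1017 of the 2660, and without it the sums were 1171, 1383 and 1324 against 1643, 1373 and 1531. Macrophage markers showed another order, with sums over 17 genes of 51043, 22598 and 37482 against 28042, 43649 and 49909, so that rAAV-YFP 2 and rAAV-Lmo3 1 were the lowest, and 15 of the 17 had a log2 difference above 0. Endothelial markers, 9 genes with sums of 10895, 14106 and 12534 against 9822, 11988 and 10999, were lowest on rAAV-Lmo3 1, and 1 of the 9 was above 0. The sums of 10 lymphocyte markers were 943 to 1425 in rAAV-YFP and 909 to 984 in rAAV-Lmo3, and 0 of the 3 tested were above 0. Cd3e and Cd2 among them were lower without overlap, as was the adipocyte marker Lep, compared with 712 of all 11963 tested genes. Of the brown adipocyte markers, Cox8b and Prdm16 were higher without overlap, compared with 4.53% of all genes. The dim Ucp1 and Cidea were higher without overlap too. The sums of 9 mesothelial markers were 1174 to 2419 and 1094 to 1421, with 0 of 6 tested above 0, and those of 8 fibroblast markers 13818 to 17459 and 14589 to 17871, with 3 of 8 above 0. Adipocyte markers had sums of 91567, 105401 and 97344 against 104085, 94748 and 88392, with 5 of 14 above 0, and 9 epididymis markers, all too dim to be tested, had sums of 522 to 594 and 483 to 563. rAAV-YFP 2 had the lowest macrophage sum and the highest adipocyte and endothelial sums of all arrays. On it, the members exceeded the mean of the other rAAV-YFP arrays by a median of 0.04, and 45 of 75 were above that mean. Over all tested genes the median was -0.02, and 46.9% were above. The part of the cell type markers in the results for the mitochondrial ribosome was not tested.

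Large and small subunit genes were compared by their medians. The log2 differences had a median of 0.19 over the 46 Mrpl genes, with 45 above 0, and of 0.15 over the 29 Mrps genes, with all 29 above 0. The gap between the medians was 0.0385. On the arrays, with each gene centred on its own mean, the Mrpl median was -0.16, -0.05 and -0.07 in rAAV-YFP and 0.30, -0.06 and 0.02 in rAAV-Lmo3. The corresponding Mrps medians were -0.14, -0.06 and -0.06, and 0.37, -0.06 and -0.02. Both subunits were highest on rAAV-Lmo3 1 and lowest on rAAV-YFP 1, and on rAAV-Lmo3 2 both lay within the range of the rAAV-YFP arrays. Computed from these medians per array, the gap of the group differences was -0.0038. The standard deviation of the gap per array, pooled within the groups, was 0.0374. It refers to single arrays and not to a difference of group means. The gaps of 0.0385 and -0.0038 differed in sign, and neither was tested. Without rAAV-Lmo3 1, the medians of the differences were 0.06 for Mrpl, with 41 of 46 above 0, and 0.05 for Mrps, with 22 of 29 above 0.

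**Figure D3:**
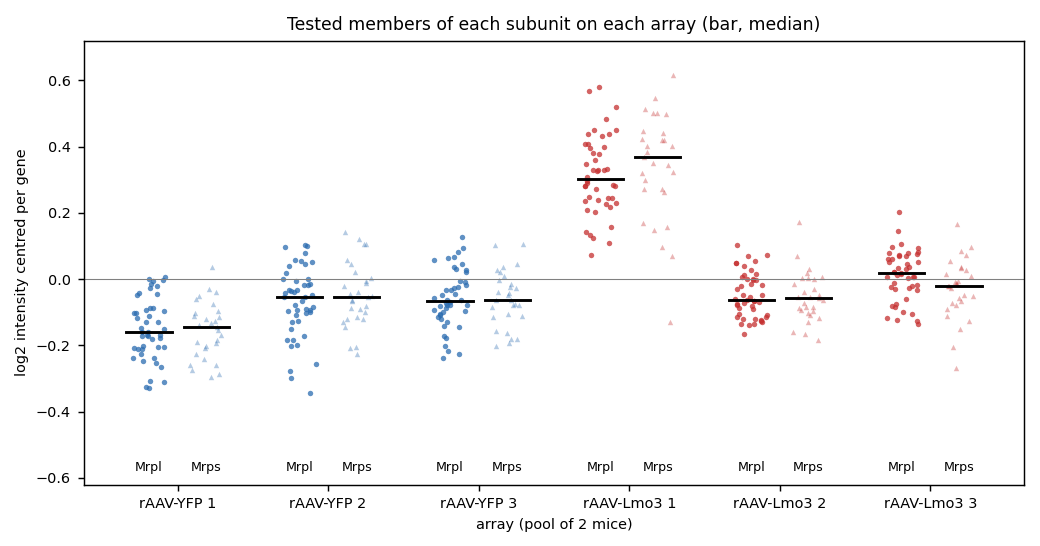
Log2 intensity of the 46 Mrpl (circles) and 29 Mrps (triangles) tested members on each array, centred on the mean of each gene over 6 arrays (vertical axis, log2 units; black bar, median; blue, rAAV-YFP; red, rAAV-Lmo3). The medians on rAAV-Lmo3 1 are 0.30 and 0.37, and on the other 5 arrays they lie between -0.16 and 0.02.

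Symbols do not always tell the subunit. By structure, Mrps30 and Mrps18a belong to the large subunit, and Mrps36 is a part of the oxoglutarate dehydrogenase complex and not of the ribosome. With the genes assigned in this way, the medians were 0.19 for 48 large subunit genes and 0.15 for 26 small subunit genes. Genes were also split by origin, with Mrps18a and Mrps18b, which are diverged paralogues of a bacterial protein, counted as mitochondria-specific. Within the large subunit, the 27 genes with a bacterial homologue had a median of 0.19 and the 21 mitochondria-specific genes one of 0.18. Within the small subunit, the corresponding values were 0.12 for 16 genes and 0.23 for 10 genes. This split of the small subunit was not tested, and without rAAV-Lmo3 1 its medians were 0.03 and 0.06. With both paralogues counted as bacterial homologues instead, a choice made after seeing the data, the medians were 0.19 for 28 and 0.18 for 20 large subunit genes, and 0.12 for 17 and 0.24 for 9 small subunit genes.

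In the large subunit, Mrpl12, which forms the stalk that recruits translation factors, had intensities of 431, 534 and 512 in rAAV-YFP and of 808, 521 and 502 in rAAV-Lmo3. Only rAAV-Lmo3 1 was above the controls, and the log2 difference of 0.28 ± 0.20 became 0.06 without it. Mrpl11, at the base of the stalk, had a log2 difference of 0.20 ± 0.15, which was 0.03 without rAAV-Lmo3 1. Mrpl10, which anchors Mrpl12 in the stalk, was the only tested member below 0, with 761, 894 and 882 against 914, 796 and 765. The groups overlapped, and the log2 difference was -0.04 ± 0.11. Without rAAV-Lmo3 1 it was -0.11.

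Mrpl3, mutations of which cause mitochondrial cardiomyopathy, gave 349, 357 and 321 against 561, 378 and 347. The log2 difference was 0.29 ± 0.18 with overlapping groups, and 0.08 without rAAV-Lmo3 1. Mrpl44, which resembles RNase III and is likewise mutated in cardiomyopathy, gave 209, 193 and 208 against 279, 228 and 224. Its groups did not overlap, with a log2 difference of 0.25 ± 0.11 and 0.15 without rAAV-Lmo3 1. Mrpl51, a mitochondria-specific protein, gave 778, 808 and 915 against 1169, 906 and 983, and its groups overlapped by rAAV-YFP 3 against rAAV-Lmo3 2. Its log2 difference was 0.29 ± 0.12. Mrpl58, a peptidyl-tRNA hydrolase that is built into the ribosome, and Mrpl41 had log2 differences of 0.22 ± 0.16 and 0.18 ± 0.15, with overlapping groups in both. The lowest large subunit genes beside Mrpl10 were Mrpl49 (0.03 ± 0.14) and Mrpl33 (0.05 ± 0.08), and Mrpl49 was -0.11 without rAAV-Lmo3 1.

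In the small subunit, Mrps12, a part of the decoding site, had 283, 328 and 324 in rAAV-YFP and 483, 339 and 305 in rAAV-Lmo3. rAAV-Lmo3 3 lay among the controls, and the log2 difference of 0.24 ± 0.18 was 0.05 without rAAV-Lmo3 1. Mrps22 and Mrps34, both mutated in mitochondrial disease, had 443, 545 and 528 against 718, 526 and 536, and 361, 437 and 422 against 623, 415 and 425. In both genes rAAV-Lmo3 1 alone exceeded the controls, and the log2 differences were 0.22 ± 0.15 and 0.24 ± 0.17. Mrps16, another disease gene, had a log2 difference of 0.10 ± 0.13, and Mrps28 had one of 0.09 ± 0.15. Without rAAV-Lmo3 1 they were -0.0056 and -0.05. Mrps24 (0.23 ± 0.14), Mrps35 (0.26 ± 0.15), Mrps27 (0.15 ± 0.09) and, in the large subunit by structure, Mrps30 (0.28 ± 0.15) all had overlapping groups. The 3 lowest small subunit genes were Mrps10 (0.03 ± 0.07), Mrps6 (0.05 ± 0.11) and Mrps11 (0.08 ± 0.10). Mrps6 had 1500, 1552 and 1740 against 1483, 1828 and 1654, with a log2 difference of 0.13 without rAAV-Lmo3 1.

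Mammals have 3 paralogues of the bacterial protein S18, and they occupy different places in the ribosome. Mrps18a, in the large subunit, gave 538, 626 and 513 against 778, 542 and 533, and Mrps18b gave 725, 835 and 837 against 1124, 750 and 811. Mrps18c gave 417, 403 and 399 against 548, 398 and 442. rAAV-Lmo3 1 was above every control in all 3 genes, and for Mrps18c so was rAAV-Lmo3 3. The log2 differences were 0.13 ± 0.17, 0.14 ± 0.16 and 0.17 ± 0.13, and without rAAV-Lmo3 1 they were -0.05, -0.03 and 0.05. Mrps36 was the tested member nearest to the limit for dim genes, an intensity of 114, with 132, 122 and 121 against 176, 125 and 140. Its log2 difference was 0.22 ± 0.13. Mrpl47, the nearest of the genes below that limit, gave 95, 86 and 104 against 147, 93 and 112, and Mrpl22 gave 55, 67 and 55 against 94, 62 and 68. A second probe set of Mrpl47 had a log2 difference of -0.03 where the first had 0.28, and the other 7 members with 2 probe sets differed between them by at most 0.04.

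Other genes of mitochondrial translation were read in the same comparison. Of the 4 tested ribosomal proteins with other symbols, Ptcd3, a small subunit protein of the pentatricopeptide repeat family, had 292, 313 and 322 against 458, 350 and 388. The groups did not overlap, and the log2 difference was 0.36 ± 0.12 (limma, adjusted p = 0.97). Chchd1 (0.36 ± 0.22), the GTP-binding protein Dap3 (0.12 ± 0.14) and Gadd45gip1 (0.05 ± 0.20) overlapped between groups. Of the 24 tested genes of ribosome assembly and rRNA modification, 18 were above 0 (50.3% of all genes) with a median of 0.10. At an unadjusted p under 0.05, 1 was higher (2.27% of all genes). This was Afg3l2, a subunit of the m-AAA protease that processes Mrpl32, with 615, 526 and 614 against 773, 652 and 684 and no overlap (0.27 ± 0.11; limma, adjusted p = 0.97). Translation factors (9 of 11 above 0, median 0.13) and the aminoacyl-tRNA synthetases (11 of 18, median 0.06) had 0 genes at that level. Genes of mitochondrial transcription and RNA handling had a median of 0.08, with 17 of 18 above 0 and 0 genes at that level. Of these 18, 1 was higher without overlap, compared with 4.53% of all genes. It was Lrpprc, which stabilizes mitochondrial mRNA, at 399, 391 and 417 against 585, 421 and 434. Its log2 difference was 0.24 ± 0.14, and 0.09 without rAAV-Lmo3 1. Among the tested assembly genes, Mterf4 was also higher without overlap and Mrm1 was lower without overlap. Over all 11963 tested genes, 542 were higher and 712 lower without overlap.

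The list for membrane insertion of the products is wide and also holds factors that assemble respiratory complexes. Of its 7 tested genes, all 7 were above 0 (median 0.13), compared with 50.3% of all genes. At an unadjusted p under 0.05, 2 were higher (2.27% of all genes). These were Letm1 (0.19 ± 0.07; limma, adjusted p = 0.97) and Cox14, an early factor of cytochrome c oxidase assembly (0.27 ± 0.11; limma, adjusted p = 0.97). When rAAV-Lmo3 1 was left out, 5 of the 7 were above 0 (50.7% of all genes). At that level 0 were then higher (2.49% of all genes). Without rAAV-Lmo3 1 the medians of the lists were 0.03 for translation factors, -0.0053 for the synthetases and 0.0023 for assembly. They were 0.01 for RNA handling and 0.08 for membrane insertion, and for the ribosomal proteins with other symbols 0.04. Among the products themselves, 2 mitochondrially encoded mRNAs were read by a probe set with 1 symbol. COX2 had a log2 difference of 0.0091 ± 0.08 and ND3 one of 0.19 ± 0.12, both with overlapping groups.

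**Figure D4:**
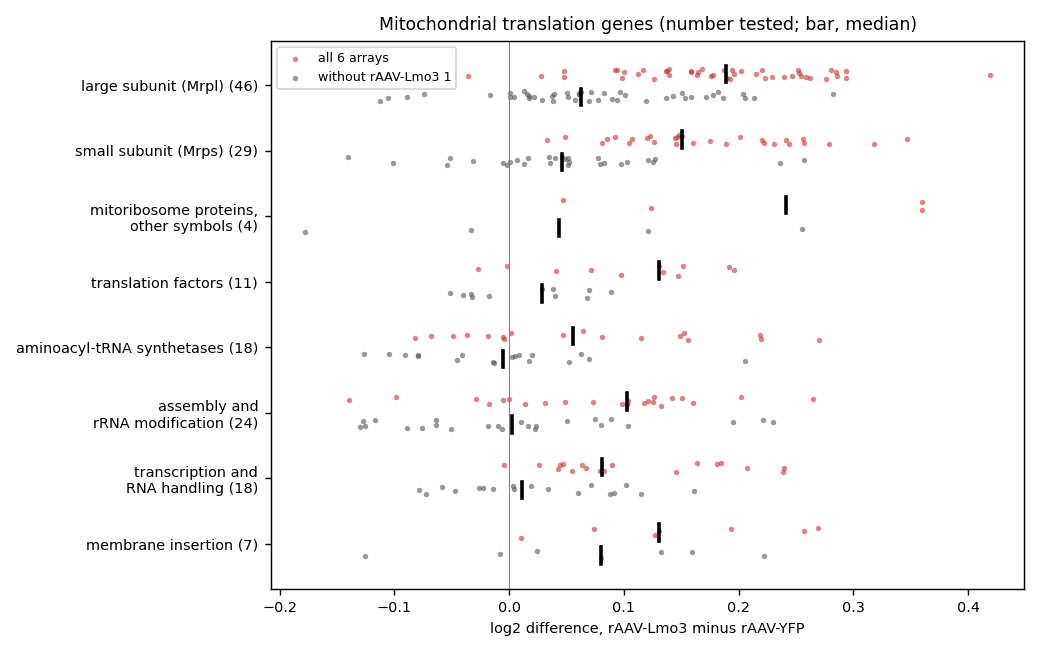
Log2 difference between rAAV-Lmo3 and rAAV-YFP of each tested gene of mitochondrial translation (horizontal axis; 1 point per gene; red, all 6 arrays; grey, without rAAV-Lmo3 1; black bar, median). The medians with all arrays range from 0.06 for the aminoacyl-tRNA synthetases to 0.24 for the ribosomal proteins with other symbols, and each is lower without rAAV-Lmo3 1.

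The promoters of the family were then searched for motifs on both strands, from 250 bases before to 50 bases after the start site. RefSeq gave 74 promoters for 68 members, and Mrpl4, Mrpl13, Mrpl15, Mrpl19, Mrpl38, Mrpl54, Mrps28, Mrps34 and Mrps35 had no entry. NRF1, a regulator of nuclear genes for mitochondria, is represented by the motif GCGCNTGCG, which was in 24.3% of member promoters, compared with 8.61% of the 21263 promoters of protein-coding genes and 6.31% of all 32851 promoters. The ETS motif CCGGAAG, bound by GABPA among others, was in 33.8%, compared with 11.6% and 8.86%. For the YY1 motif AAGATGGCG the shares were 10.8%, 1.83% and 1.4%. At least 1 of these motifs was in the promoters of 42 of 68 members. The CCAAT box (CCAAT) was in 39.2% of member promoters and in 38.2% of those of protein-coding genes, and shares were 20.3% and 15.4% for the GC box, 9.46% and 7.84% for the E-box (CACGTG), and 2.7% and 2.23% for the cAMP response element. The half-site of ERR (TCAAGGTCA) was in 0 of 74 member promoters and in 0.334% of those of protein-coding genes. Matches of different motifs did not overlap in any member promoter.

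By subunit, the NRF1 motif was in 13 of 42 Mrpl and 5 of 26 Mrps genes, and the ETS motif in 14 and 11. Mrps26, of which the window before the start site is printed above, also had a NRF1 match that runs across that site. Mrps33 had an ETS match behind the start site, and Mrpl14 a NRF1 match there. The median log2 difference was 0.19 over 17 tested genes with the NRF1 motif and 0.17 over 49 without it, and 0.17 over 24 with and 0.18 over 42 without the ETS motif. A match describes letters only and is not a binding site.

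**Figure D5:**
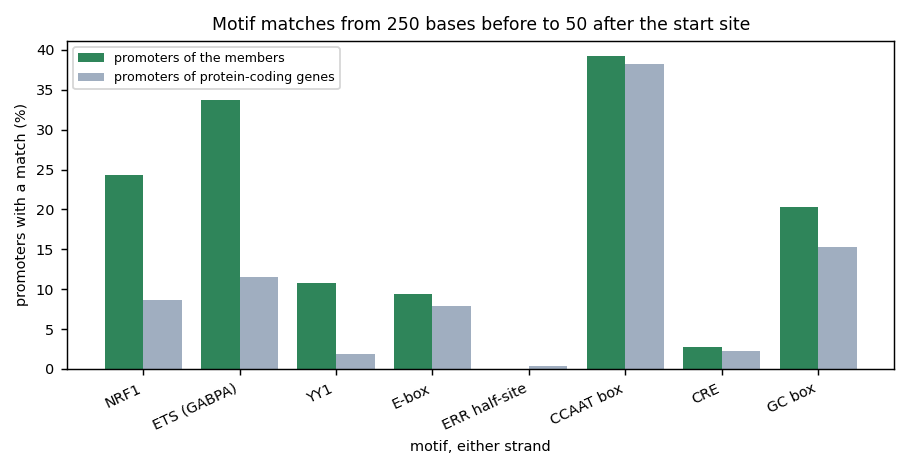
Share of promoters with at least 1 match of each motif on either strand (vertical axis, %), for the 74 promoters of the members (green) and the 21263 promoters of protein-coding genes (grey). The largest gaps are those of the ETS motif (33.8% and 11.6%), NRF1 (24.3% and 8.61%) and YY1 (10.8% and 1.83%).

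Many members share their promoter region with a gene on the other strand. Of the 68 members, 23 (33.8%) had an oppositely oriented start site within 500 bases, compared with 11.7% of protein-coding genes and 10.9% of all. Mrpl46 and Mrps11 form such a pair of their own. Among the 14 tested neighbours that are no members themselves, 8 had a log2 difference above 0, and their values ran from -0.10 to 0.35 around a median of 0.0053. The highest were Ndufb5 (0.35), a complex I subunit next to Mrpl47, Ptcd2 (0.26) next to Mrps27, and Psma2 (0.24), a proteasome subunit next to Mrpl32, whose own value was 0.25. Tmem63b, next to Mrpl14, was at -0.10, where Mrpl14 was at 0.26.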

How the data were processed

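Total RNA of eWAT was hybridized to 6 arrays, and the titles of the samples gave the groups and replicate numbers. The deposited intensity values had been computed by the authors with RMA (background correction, quantile normalization and summarization of probes) in Affymetrix Expression Console 1.1. They are on the linear scale, as whole numbers from 8 to 20438, with array medians between 123 and 127.5. Arrays give no counts, so their number limits the precision. Values were log2-transformed. Of 35556 probe sets, 21789 had 1 symbol, 1621 several and 12146 none. Mrpl53 shares its probe set with Ccdc142 and was left out. RefSeq (GRCm38.p6) held 21698 of the 21789 symbols.

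The brightest probe set per gene was used (85 probe sets for the 77 members), and genes below a mean intensity of 114 were not tested. Differences are rAAV-Lmo3 minus rAAV-YFP, tested two-sided by moderated linear models (limma 3.58.1 under R 4.3.3) with Benjamini-Hochberg adjustment over all 11963 genes at a threshold of 0.05. The SE is that of the moderated difference, and p-values measure the spread between pools. The methods' t-test had equal variances. The limma fit was tried on simulated data with independent noise per gene and changes larger than those of the members. It does not cover genes that vary together on an array, as the members do. The members and lists were chosen with earlier results of these data known, and the divergent neighbours and medians per motif after the values had been seen. Named by rule are, per subunit, the 8 members with the smallest p and the 3 lowest, members with a role given, those nearest to the limit for dim genes, and those with disagreeing probe sets. The other members named were taken for their overlap or their array pattern. Alternatives were centring, a second quantile normalization, array weights, a trend and robust prior, a replicate block, leaving out arrays, other limits for dim genes, and the mean over probe sets.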

Additional observations from a re-analysis of the deposited data

How the results depend on the processing

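No member passed the adjusted test under any alternative. The number of members higher at an unadjusted p under 0.05 (8) was 5 by the methods' t-test and 1 without both arrays that stood apart, and between 2 and 12 when 1 array was left out. The number without overlap (13) was 21 without both arrays, and between 13 and 36 when 1 array was left out, since fewer arrays overlap less often. Over all genes, the share without overlap was 4.53% with all arrays and 10.3% without rAAV-Lmo3 1. The share at an unadjusted p under 0.05 was 2.27% and 2.49%, and 1.95% by the methods' t-test. For the other settings these shares were not computed, so their counts are not read as a result about the members. The gap between the subunit medians was between -0.0019 (without rAAV-Lmo3 3) and 0.0282 when 1 array was left out. Replicate numbers were not used to pair the arrays in the main fit. The deviations of arrays with the same number had correlations of -0.55, -0.40 and 0.26, and 0 of the arrays correlated best with its own number. With so few arrays per group, these values cannot exclude a pairing. With a replicate block, 4 members were higher at an unadjusted p under 0.05.

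Array weights reduced the medians of the large and small subunit from 0.19 to 0.10 and from 0.15 to 0.07, and the members above 0 from 74 to 69. Of the single members, Mrpl49 (0.03) was -0.0767 with array weights and -0.0987 without both arrays. When 1 array was left out, it ranged from -0.106 to 0.0989, Mrpl10 from -0.112 to 0.0162, Mrps11 from -0.0118 to 0.131, Mrps16 from -0.00559 to 0.192, Mrps18a from -0.0514 to 0.222, Mrps18b from -0.0317 to 0.260, Mrps28 from -0.0546 to 0.177 and Mrps6 from -0.0255 to 0.125. The cause was not tested. The other tested members named by the rule kept their sign under each alternative run for them. Of the 34 members in all, 27 were bright enough for the stricter limit for dim genes, and members named outside the rule were only run with arrays left out. Centring moved the median of all genes by 0.02.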
